A study of Homo sapiens with 4 samples.

Results

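The genes of MHC class I antigen presentation were examined in MCF12A cells, an immortalised, non-tumorigenic line of human mammary epithelium that the source label of the series calls a breast cancer line. The set was chosen by name and comprised 9 genes: the heavy chains HLA-B, HLA-C and HLA-E, the light chain B2M, the peptide transporter subunits TAP1 and TAP2, the peptide-loading chaperone TAPBP (tapasin), and the immunoproteasome subunits PSMB8 and PSMB9. Of these 9, 4 were analysed, namely HLA-B, B2M, TAP2 and TAPBP, out of 16811 genes with values. HLA-C, HLA-E, TAP1, PSMB8 and PSMB9 were not analysed here, and 0 of their RefSeq synonyms matched a gene with values. Poly(A)-selected RNA was sequenced in 2 groups of 2 biological replicates, and values of a group are given below with replicate 1 before replicate 2. Wild-type cells were unmodified MCF12A. Edited cells, whose genotype label is C1orf132 KO, carried a CRISPR/Cas9 deletion of p2, the distal promoter of the long noncoding RNA C1orf132, which also hosts miR-29b2 and miR-29c. Both groups grew in the same medium with horse serum, EGF, hydrocortisone, cholera toxin and insulin, and the labels name no interferon. Edited cells were taken through transfection and colony selection, and the colony that was sequenced is not given in the sources used here, so that effects of the deletion and of the colony cannot be told apart. C1orf132 was not analysed here, so the genotype labels were not checked against the targeted gene.

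Class I molecules display peptides of intracellular proteins to CD8 T cells. The proteasome cuts proteins into peptides, TAP carries the peptides into the endoplasmic reticulum, and tapasin with calreticulin and PDIA3 loads them onto a heavy chain paired with beta-2-microglobulin, the product of B2M. Interferons raise most of these genes through IRF1 and NLRC5, and breast tumours often lower them.

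The heavy chain, transporter and tapasin genes lie in the MHC on chromosome 6. In RefSeq on GRCh38.p14, HLA-B spans 31353875 to 31357179, TAP2 spans 32821831 to 32838739 and TAPBP spans 33299694 to 33314078 of that chromosome. B2M lies outside the MHC, on chromosome 15 from 44711517 to 44718145. The 250 bases before each RefSeq start site are shown because class I genes share interferon, NF-kB and enhanceosome elements there. They are printed 5′ to 3′ in the direction of transcription, and capitals mark matches, on either strand, to GAAANNGAA (a core of the interferon-stimulated response element, ISRE), TTCNNNGAA (a gamma-activated site), the NF-kB site, TGACG (found in the X2 box and in cAMP response elements) and CCAAT (the NF-Y box).
HLA-B, chr6:31357180-31357429, minus strand: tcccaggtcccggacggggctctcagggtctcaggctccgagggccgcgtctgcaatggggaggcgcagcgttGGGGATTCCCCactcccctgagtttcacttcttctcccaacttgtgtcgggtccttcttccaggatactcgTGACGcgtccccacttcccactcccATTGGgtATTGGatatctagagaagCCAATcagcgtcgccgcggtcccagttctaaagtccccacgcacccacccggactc
B2M, chr15:44711267-44711516, plus strand: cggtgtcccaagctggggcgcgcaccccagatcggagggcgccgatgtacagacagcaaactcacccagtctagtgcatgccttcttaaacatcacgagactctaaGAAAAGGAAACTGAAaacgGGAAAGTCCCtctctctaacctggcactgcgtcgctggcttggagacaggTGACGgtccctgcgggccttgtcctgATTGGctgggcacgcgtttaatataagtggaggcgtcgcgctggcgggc
TAP2, chr6:32838740-32838989, minus strand: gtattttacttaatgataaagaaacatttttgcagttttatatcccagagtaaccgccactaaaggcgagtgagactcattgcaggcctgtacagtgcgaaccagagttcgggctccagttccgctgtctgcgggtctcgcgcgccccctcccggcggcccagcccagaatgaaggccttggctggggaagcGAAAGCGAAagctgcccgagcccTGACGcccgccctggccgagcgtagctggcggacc
TAPBP, chr6:33314079-33314328, minus strand: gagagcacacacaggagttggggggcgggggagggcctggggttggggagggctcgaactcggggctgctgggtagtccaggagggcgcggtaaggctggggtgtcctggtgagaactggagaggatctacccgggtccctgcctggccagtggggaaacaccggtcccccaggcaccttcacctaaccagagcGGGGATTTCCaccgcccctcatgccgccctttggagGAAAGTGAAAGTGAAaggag
IRF1, chr5:132490774-132491023, minus strand: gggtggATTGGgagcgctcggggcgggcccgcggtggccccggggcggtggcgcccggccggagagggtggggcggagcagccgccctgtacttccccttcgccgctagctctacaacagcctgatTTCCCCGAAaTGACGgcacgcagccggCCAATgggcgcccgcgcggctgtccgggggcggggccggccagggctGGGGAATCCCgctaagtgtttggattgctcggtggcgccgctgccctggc

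The promoter of B2M held overlapping ISRE cores starting at -144 and -138 from the start site, an NF-kB match at -125, TGACG at -75 and an inverted CCAAT at -49. The promoter of HLA-B held overlapping NF-kB matches at -177 and -176 on both strands, TGACG at -106 and CCAAT in either direction at -81, -74 and -56. GAAANNGAA had no match in this window. As it is a core only, whether HLA-B holds an ISRE of another spelling was not tested. TAP2 had an ISRE core at -58 and TGACG at -35. TAPBP had an NF-kB match at -56 and overlapping ISRE cores at -20 and -14. The promoter of IRF1, the regulator that passed the test below, held a gamma-activated site at -124, TGACG at -114, CCAAT at -244 and -97, and an NF-kB match at -50. Among 35116 RefSeq promoter windows of 300 bases, 8.11% held GAAANNGAA, 7.66% TTCNNNGAA, 34.6% CCAAT, 24.6% TGACG and 11.3% the NF-kB site, so that such letters are common and a match is a description only.

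The values analysed were normalized values of the authors, whose method is not given in the sources used here and which were treated as scaled to transcript length. They summed to 1444644 to 1655437 per library. On a 1 kb transcript a single read was estimated to add 0.104 to 0.125 to the value, so read depth was alike, with edited replicate 2 deepest at 1.12 times edited replicate 1. Genes were tested with limma on log2(value + 1), so that folds of genes with low values are understated. Of 9590 genes with a mean of at least 10, 7.09% passed an adjusted p of 0.05, 277 higher and 403 lower in edited cells (4.2% lower), and 32.3% had an unadjusted p under 0.05. In 65.1% of them the values of the groups did not overlap, which sets the background for any such separation with 2 libraries per group. Over all 16811 genes, the fit used for genes below a mean of 10, 4.73% passed the adjusted p, 29.2% the unadjusted one, and 61.6% did not overlap. Leaving out 1 library leaves the spread to be estimated from the other group alone, with fewer degrees of freedom. With 1 library left out the number of calls fell below 680, except without edited replicate 2, where it rose. Whether the values of the library or the spread estimate brought this was not tested. For such fits the log2 fold changes are given. Of 10 epithelial markers, all measured, 1 rose (KRT8) and 4 fell (EPCAM, CDH1, KRT17 and TP63). Over genes with a mean of at least 10, 7.09% passed, and over all genes 4.73%. KRT5, KRT14, KRT18, KRT19 and ITGB4 did not pass, and in KRT18 and ITGB4 the groups overlapped. The summed level of the 10 was 5180 and 6959 in edited cells against 12314 and 20822 in wild-type cells. KRT17 and KRT5, which did not pass (limma adjusted p = 0.146), made up most of each sum. Of 10 mesenchymal markers 4 were measured. VIM rose and COL1A1 fell, DCN and FAP did not pass, and the sums were 855 and 1439 against 335 and 246. VIM made up most of these, with 824 and 1215 against 257 and 194. Of 10 leukocyte markers only CD14 and CSF1R were measured, with sums of 9.59 to 9.85 in edited and 12.3 to 16.7 in wild-type cells, and PTPRC and the endothelial markers were not analysed here. The part of these shifts in the class I results was not tested.

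None of the 4 class I genes passed the adjusted threshold by limma, against 7.09% of genes in the fit that holds B2M and TAP2 and 4.73% in the fit that holds HLA-B and TAPBP. At the stricter adjusted p of 0.001 only 0.0104% of genes passed, and none of the 4. HLA-B, B2M, TAP2 and TAPBP all had lower mean values in edited cells, with log2 fold changes of -0.99 to -0.26 and a median of -0.53, while the median was 0.09 over the genes with a mean of at least 10 and 0.01 over all genes. With 4 genes and 2 libraries per group this common sign is a description, and in bulk RNA fewer expressing cells and less RNA per cell cannot be told apart. HLA-B was the 1 gene of the 4 with an unadjusted p under 0.05, against 32.3% of genes with a mean of at least 10 and 29.2% of all genes. In HLA-B and B2M both edited libraries lay below both wild-type libraries, and in TAP2 and TAPBP the groups overlapped. The groups did not overlap in 65.1% of genes with a mean of at least 10 and 61.6% of all genes, so such a separation was common.

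**Figure D1:**
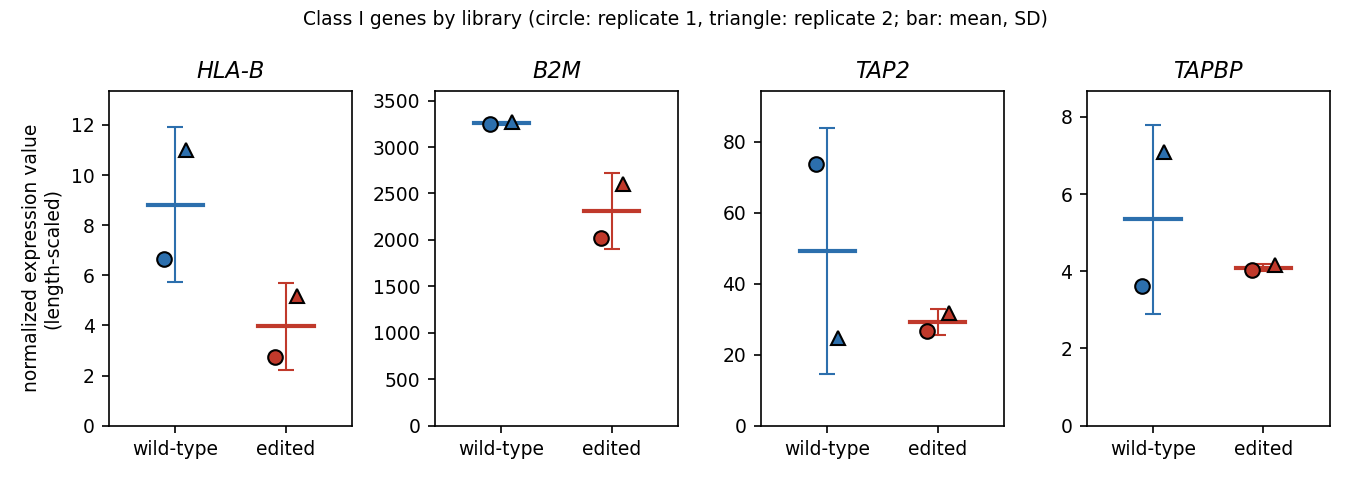
Normalized value (treated as length-scaled, linear axes from 0) of HLA-B, B2M, TAP2 and TAPBP in each library, wild-type in blue and edited in red. Circles mark replicate 1, triangles replicate 2, and bars the mean and SD of 2 libraries. Edited libraries lie below wild-type libraries for HLA-B and B2M, and 1 wild-type library (73.8 in TAP2, 7.08 in TAPBP) stands above the other 3 for TAP2 and TAPBP.

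HLA-B encodes a classical heavy chain, the polymorphic subunit that holds the peptide. Its value was 2.74 and 5.19 in edited cells against 6.64 and 11.0 in wild-type cells. The groups did not overlap, but the libraries within each group differed from each other by more than the gap between the groups. The mean was 3.96 ± 1.73 (SD, n = 2) in edited and 8.82 ± 3.08 in wild-type cells, a ratio of 0.449. The log2 fold change was -0.99 (SE 0.36, unadjusted p = 0.0394, limma adjusted p = 0.150). The adjusted p lay between 0.106 and 0.464 over the alternatives. Leaving out 1 library gave log2 fold changes of -1.36 to -0.63, all lower in edited cells.

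HLA-B was in the lower part of the range of all genes. It stood above 24.5% and 33.6% of genes in the edited libraries and above 36.2% and 44.4% in the wild-type libraries, and corresponded to an estimated 36.2, 76.8, 81.6 and 145 reads in the edited and then the wild-type libraries. HLA-F, a nonclassical heavy chain, had 2.04 and 1.22 in the libraries numbered 1 and was listed at 0 in those numbered 2. Heavy chain genes are near-identical copies of each other and differ between people, so the authors' counting could have split their reads, and their levels are uncertain. RefSeq places the microRNA gene MIR6891 within HLA-B and MIR10393 within B2M, and TAPBP overlaps RGL2, none of which was analysed here.

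B2M encodes the light chain that pairs with each HLA class I heavy chain. Its value was 2023 and 2603 in edited cells against 3246 and 3268 in wild-type cells. The wild-type libraries nearly coincided, and the edited libraries lay lower and apart from each other. The mean was 2313 ± 410 (SD, n = 2) in edited and 3257 ± 15.8 in wild-type cells, a ratio of 0.710. The log2 fold change was -0.51 (SE 0.22, unadjusted p = 0.0647, limma adjusted p = 0.180), with an adjusted p of 0.0841 to 0.652 over the alternatives. It stayed negative when 1 library was left out (-0.69 to -0.32) and when libraries were rescaled (-0.69 to -0.59). B2M was among the most abundant transcripts, 133rd and 111th from the top in the edited and 93rd and 71st in the wild-type libraries.

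HLA-B amounted to 0.135% and 0.199% of the B2M value in the edited libraries, and to 0.205% and 0.336% in the wild-type libraries. The log2 ratio was lower by a mean difference of -0.68 in edited cells, with SDs of 0.39 and 0.51, and the exact two-sided permutation test gave p = 0.33, the smallest that 2 against 2 libraries allows. Leaving out 1 library gave differences of -1.03 to -0.32. The HLA-B level that this ratio rests on is uncertain, as said above of heavy chain reads. The percentages also take the values as length-scaled, which is an assumption.

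B2M is also a common reference gene for qRT-PCR, and the study gives its qRT-PCR levels of target genes relative to B2M. Here B2M was compared with 12 others of that use. It had the lowest log2 fold change of the 13. The others ranged from -0.31 for GUSB, a lysosomal glucuronidase, to 1.33 for ACTB, cytoplasmic actin, with a median of 0.25, and 8 of the 12 were higher in edited cells. By limma 0 of the 13 passed the adjusted threshold, while 3 had an unadjusted p under 0.05 (GAPDH, ACTB and TFRC), against 7.09% and 32.3% of genes with a mean of at least 10. The B2M value over the geometric mean of the other 12 was 2.33 and 2.95 in edited cells against 4.29 and 5.14 in wild-type cells, without overlap. ACTB had 12391 and 12182 in edited cells against 7813 and 3076 in wild-type cells, so its difference was widest against wild-type replicate 2. Without wild-type replicate 2, B2M was the second lowest, at -0.50 against -0.51 for the lowest, and in all other alternatives it was the lowest.

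**Figure D2:**
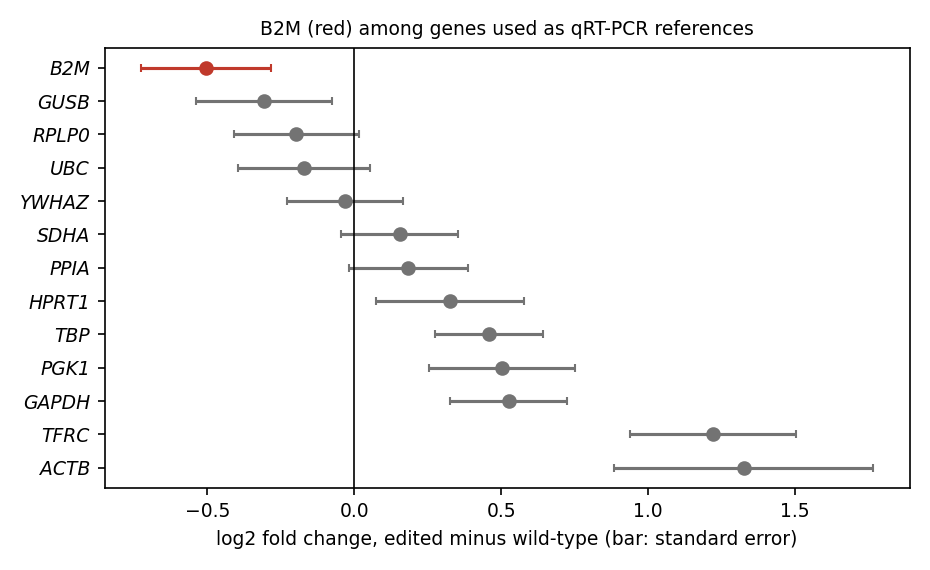
Log2 fold change, edited minus wild-type, of 13 genes used as qRT-PCR references, with bars for the limma standard error and B2M in red. B2M has the lowest value (-0.51) and ACTB the highest (1.33), and none of the 13 passes an adjusted p of 0.05.

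TAP2 encodes the subunit that pairs with TAP1 to pump peptides into the endoplasmic reticulum. Its value was 26.6 and 31.7 in edited cells against 73.8 and 24.8 in wild-type cells. Wild-type replicate 1 stood alone at the top, and the other wild-type library was the lowest of all 4. The means were 29.2 ± 3.60 (SD, n = 2) and 49.3 ± 34.7 (log2 fold change -0.55, SE 0.49, limma adjusted p = 0.477). Without wild-type replicate 1 the sign turned, to 0.22 (adjusted p = 0.564, with 0.146 to 0.694 over the alternatives), so that TAP2 had no stable direction.

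TAPBP encodes tapasin, which bridges TAP and the empty heavy chain. Its value was 4.03 and 4.16 in edited cells against 3.61 and 7.08 in wild-type cells. Here wild-type replicate 2 was the high library and wild-type replicate 1 the lowest of the 4, the reverse of TAP2. The means were 4.09 ± 0.0907 (SD, n = 2) and 5.34 ± 2.45 (log2 fold change -0.26, SE 0.33, limma adjusted p = 0.642), and without wild-type replicate 2 the sign turned, to 0.14 (adjusted p = 0.785, with 0.227 to 0.881 over the alternatives).

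**Figure D3:**
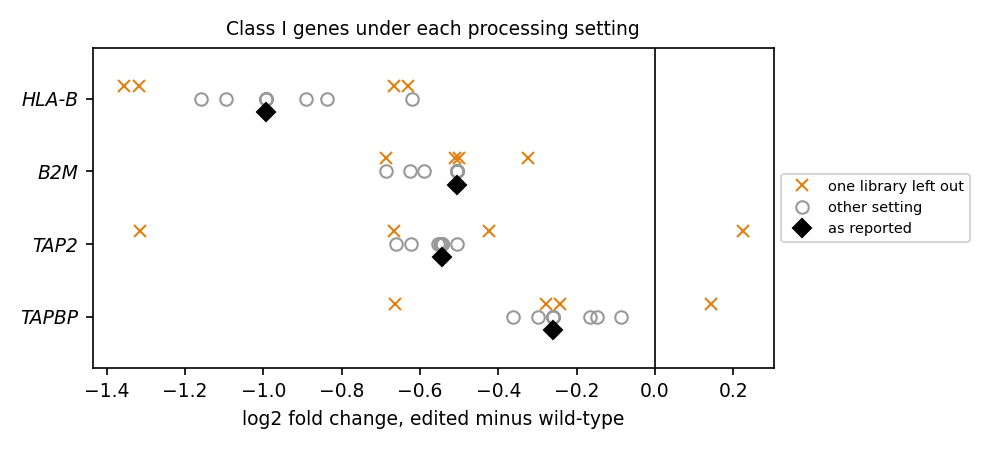
Log2 fold change, edited minus wild-type, of HLA-B, B2M, TAP2 and TAPBP as reported (black diamonds), with 1 library left out (orange crosses) and under the other processing settings (grey circles). HLA-B and B2M stay below 0 throughout, while TAP2 reaches 0.22 and TAPBP 0.14 when 1 wild-type library is left out.

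Around these genes, 21 other genes of the class I pathway were listed and 20 analysed. Of them 1 rose, BLMH, and 1 fell, TAPBPL, by limma; 13 had a positive and 7 a negative log2 fold change, with a median of 0.22, and 8 had an unadjusted p under 0.05. These 2 of 20 called and 8 of 20 unadjusted were near the shares over genes with a mean of at least 10 (7.09% and 32.3%) and over all genes (4.73% and 29.2%). TAPBPL encodes TAPBPR, a tapasin relative that edits the peptides of class I molecules outside the loading complex. Its value was 5.68 and 6.91 in edited cells against 16.1 and 16.0 in wild-type cells, so the replicates lay close together within each group and the groups far apart. The log2 fold change was -1.23 (SE 0.24, limma adjusted p = 0.0446), close to the threshold. The limma adjusted p rose to 0.0596 with quantile and 0.0522 with cyclic loess normalization of the 4 libraries, and to 0.0806 with the replicate number as a block. The log2 fold change stayed between -1.35 and -1.11 when 1 library was left out.

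BLMH encodes bleomycin hydrolase, a cytosolic peptidase that can trim class I peptides. Its value was 28.5 and 23.7 in edited cells against 3.76 and 4.57 in wild-type cells. That was a 6.27-fold higher mean in edited cells, with a log2 fold change of 2.39 (SE 0.24, limma adjusted p = 0.0112). With all 4 libraries kept, the call was lost with the replicate number as a block (limma adjusted p = 0.0548). Leaving out 1 library gave log2 fold changes of 2.26 to 2.52. The other measured peptidases did not pass the test. THOP1, which degrades cytosolic peptides, had a log2 fold change of 0.81 (SE 0.24, limma adjusted p = 0.0895) and LAP3, leucine aminopeptidase, of 0.70 (adjusted p = 0.107). ERAP1 and ERAP2, which trim peptides inside the endoplasmic reticulum, had -0.26 and -0.58 (adjusted p = 0.609 and 0.233), and the sign of ERAP1 turned, to 0.20, without edited replicate 1.

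The chaperones of the endoplasmic reticulum serve many proteins besides class I. CANX, calnexin, which holds new heavy chains, had 1153 and 1231 in edited cells against 646 and 501 in wild-type cells. The groups were far apart, with a log2 fold change of 1.06 (SE 0.23) and a limma adjusted p of 0.0514, just above the threshold and between 0.0398 and 0.224 over the alternatives. CALR, calreticulin, and PDIA3, both partners of tapasin in the loading complex, had log2 fold changes of 0.33 and 0.35 (adjusted p = 0.289 and 0.275). These abundant chaperones thus had positive values where HLA-B, B2M, TAP2 and TAPBP had negative ones, with none of these 7 genes passing the test.

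**Figure D4:**
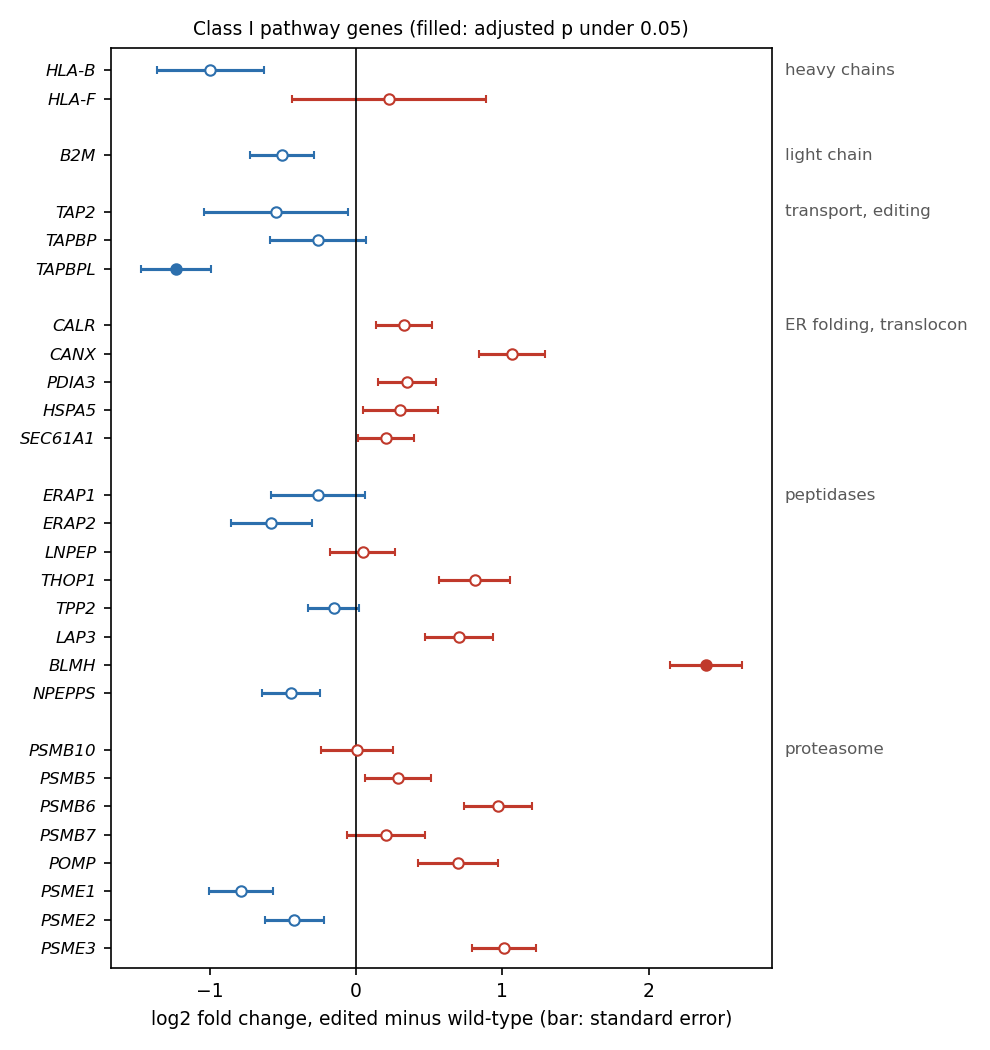
Log2 fold change, edited minus wild-type, of the analysed class I pathway genes grouped by role, with bars for the limma standard error, red for positive and blue for negative values and filled points for an adjusted p under 0.05. TAPBPL (-1.23) and BLMH (2.39) are the filled points.

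PSMB10, the third catalytic subunit of the immunoproteasome beside PSMB8 and PSMB9, had 122 and 82.2 in edited cells against 104 and 95.0 in wild-type cells, a log2 fold change of 0.01 (SE 0.25, limma adjusted p = 0.984). With values taken as length-scaled, PSMB10 amounted to 35.4% and 23.5% of its constitutive counterpart PSMB7 in edited cells. It was 27.8% and 39.0% in wild-type cells, with overlap (exact two-sided permutation p = 0.667). The constitutive catalytic subunits PSMB5, PSMB6 and PSMB7 had log2 fold changes of 0.29, 0.97 and 0.20. By limma 0 of these 3 passed the adjusted and 1 the unadjusted threshold, against 7.09% and 32.3% of genes with a mean of at least 10. The values of PSMB10, PSMB5 and PSMB7 reached below 0 under other scalings of the libraries (lowest -0.16, -0.03 and -0.12). PSMB6 came nearest, with 196 and 154 in edited cells against 99.7 and 78.2 in wild-type cells (limma adjusted p = 0.0635). It passed when only genes with a mean of at least 50 were tested (limma adjusted p = 0.0465).

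PSME1 and PSME2 encode the PA28 alpha and beta caps, which interferon-gamma induces and which open the proteasome for antigen processing. PSME1 had 214 and 238 in edited cells against 436 and 347 in wild-type cells (log2 fold change -0.78, SE 0.22, limma adjusted p = 0.0829). PSME2 had 268 and 234 against 342 and 330 (log2 fold change -0.42, adjusted p = 0.208). PSME3, the nuclear PA28 gamma cap, which is not part of the interferon response, lay the other way, with 174 and 130 against 75.4 and 72.9 (log2 fold change 1.01, SE 0.22, adjusted p = 0.0524). In all 3 genes the groups did not overlap, as in 65.1% of genes with a mean of at least 10, and none of the 3 passed the main test. PSME1 passed with equal library totals, quantile and cyclic loess normalization (limma adjusted p of 0.0354 to 0.0446). PSME3 passed with a mean of at least 50 (limma adjusted p = 0.0355) and with the robust variance estimate (0.0424).

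Regulators of the class I promoters were all measured, 24 of 24. By limma 0 rose and 1 fell, IRF1, against 7.09% called of genes with a mean of at least 10 and 4.73% of all genes. Of the 24, 8 had positive and 16 negative log2 fold changes, with a median of -0.44. An unadjusted p under 0.05 was found for 6, against 32.3% of genes with a mean of at least 10 and 29.2% of all genes. IRF1 is the interferon-inducible factor that binds the ISRE of class I promoters. Its value was 16.4 and 25.5 in edited cells against 94.2 and 109 in wild-type cells, with a gap between the groups that was far wider than the spread within either. The mean was 20.9 ± 6.38 (SD, n = 2) against 101 ± 10.3, a ratio of 0.206, and the log2 fold change was -2.25 (SE 0.25, limma adjusted p = 0.0140). With the replicate number as a block the limma adjusted p rose to 0.0412. Leaving out 1 library gave log2 fold changes of -2.55 to -1.95.

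NLRC5, the class I transactivator that assembles on the X box factors, had 17.2 and 17.9 in edited cells against 11.5 and 13.4 in wild-type cells. It lay higher in both edited libraries, unlike IRF1, and did not pass the test (log2 fold change 0.47, SE 0.20, limma adjusted p = 0.174). RFX5, the DNA-binding partner of NLRC5, had a log2 fold change of 0.24 (adjusted p = 0.487). IRF9, the DNA-binding subunit of the type I interferon complex ISGF3, had 19.5 and 29.7 against 54.9 and 51.3 (log2 fold change -1.11, SE 0.24, adjusted p = 0.0524). IRF9 passed with equal library totals (limma adjusted p = 0.0423), quantile normalization (0.0459) and the robust variance estimate (0.0444). It did not pass with cyclic loess normalization (0.0503) or the replicate block (0.0847). IFNGR1, the ligand-binding chain of the interferon-gamma receptor, had 55.7 and 87.2 against 139 and 131 (log2 fold change -0.94, SE 0.26, adjusted p = 0.0808).

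**Figure D5:**
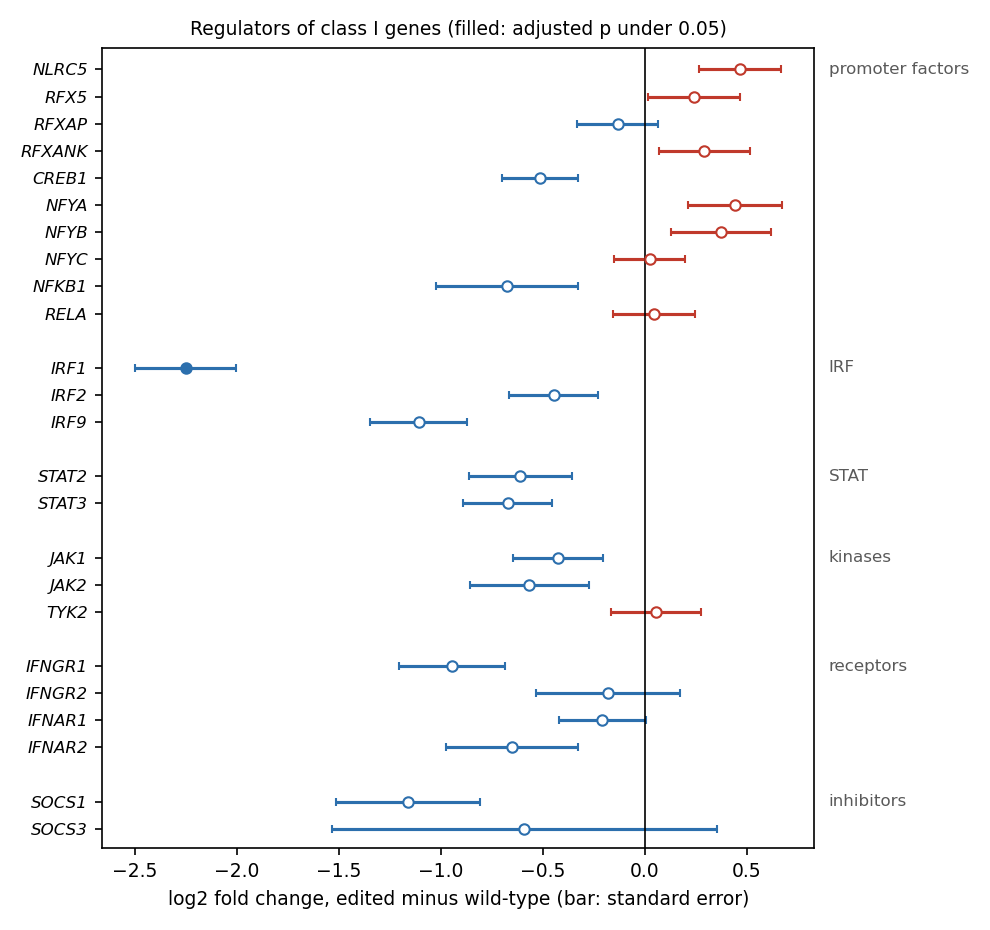
Log2 fold change, edited minus wild-type, of 24 regulators of class I promoters grouped by type, with bars for the limma standard error, red for positive and blue for negative values and filled points for an adjusted p under 0.05. IRF1 (-2.25) is the filled point, and NLRC5 (0.47) lies on the other side of 0.

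Of 30 interferon-stimulated genes listed, 24 were analysed, and 0 rose while 3 fell: OAS1, OAS2 and IFIH1. Of the 24, 18 had negative log2 fold changes, 11 had an unadjusted p under 0.05, and the median was -0.86. Over genes with a mean of at least 10, 7.09% were called and 32.3% had an unadjusted p under 0.05, and over all genes 4.73% and 29.2%. OAS1 and OAS2 encode sensors of double-stranded RNA that activate RNase L. OAS1 had 2.70 and 2.22 in edited cells against 8.41 and 15.3 in wild-type cells (log2 fold change -1.84, SE 0.33, limma adjusted p = 0.0476), a call kept in 4 of 13 alternatives. Leaving out 1 library gave log2 fold changes of -2.24 to -1.45 for OAS1. The 13 alternatives include the fits with 1 library left out. OAS2 was listed at 0 in edited replicate 1 and had 0.0714 in edited replicate 2, against 2.21 and 3.17 (adjusted p = 0.0384). Its call was kept in 6 of 13 alternatives, with log2 fold changes of -2.01 to -1.63 when 1 library was left out. IFIH1, the RNA sensor MDA5, had 5.30 and 5.38 against 18.8 and 19.6 (log2 fold change -1.67, SE 0.23, adjusted p = 0.0223). Its call was kept in 10 of 13 alternatives, with log2 fold changes of -1.70 to -1.64 when 1 library was left out. ISG15, a ubiquitin-like modifier that interferon induces, lay the other way without passing the test, with 33.3 and 35.0 against 26.4 and 26.2 (log2 fold change 0.37, adjusted p = 0.183).

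Among class I-like genes and ligands of the NKG2D receptor, 12 of 13 were analysed, and 0 rose while 2 fell, MR1 and FCGRT, against 7.09% called of genes with a mean of at least 10 and 4.73% of all genes. Of the 12, 5 had an unadjusted p under 0.05, against 32.3% and 29.2%. MR1 and FCGRT were thus 2 of few analysed genes. Both encode heavy chains that pair with beta-2-microglobulin. So do HFE and CD1D of the same list, which did not pass (log2 fold changes -0.81 and 0.03, limma adjusted p = 0.0928 and 0.955). MR1, which presents microbial riboflavin metabolites, had 16.4 and 23.2 in edited cells against 51.5 and 69.4 in wild-type cells (log2 fold change -1.57, SE 0.25, limma adjusted p = 0.0310). FCGRT, the neonatal Fc receptor, had 1.97 and 4.30 against 25.4 and 14.4 (log2 fold change -2.35, SE 0.43, adjusted p = 0.0403). Among fits with all 4 libraries, both calls were lost with the replicate block (limma adjusted p = 0.0521 for MR1 and 0.0817 for FCGRT). That of FCGRT was also lost with cyclic loess normalization (0.0507). Leaving out 1 library gave log2 fold changes of -1.81 to -1.33 for MR1 and -2.77 to -1.93 for FCGRT. The NKG2D ligands ULBP2 and RAET1G had log2 fold changes of -1.03 and -0.62 (adjusted p = 0.123 and 0.143), and ULBP1 and ULBP3 had positive values of 0.37 and 0.35. RAET1E had 0.16, with overlapping groups, and its sign turned, to -0.32, without edited replicate 2.

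Of 13 genes of the class II pathway, 3 were analysed and 2 fell, against the same 7.09% and 4.73%, a count too small to read as a share. CD74, the invariant chain, had 0.33 and 0.30 in edited cells against 2.95 and 4.99 in wild-type cells (log2 fold change -1.89, SE 0.30, limma adjusted p = 0.0413). CTSS, the protease cathepsin S that degrades the invariant chain, had 0.886 and 3.26 against 23.1 and 17.9 (log2 fold change -2.91, SE 0.46, adjusted p = 0.0319). CD74 was near the floor in edited cells. Among fits with all 4 libraries, its call was lost with the replicate block (limma adjusted p = 0.0740) and a pseudocount of 5 (0.0520). Leaving out 1 library gave log2 fold changes of -2.19 to -1.59 for CD74. HLA-DOB, a chain of the class II modulator HLA-DO, was listed at 0 in edited replicate 1 and had 0.755 in edited replicate 2, against 2.74 and 4.44, and did not pass the test (adjusted p = 0.0643). With all 4 libraries kept, the call of CTSS was lost with the replicate number as a block (limma adjusted p = 0.0706). Leaving out 1 library gave log2 fold changes of -3.50 to -2.32 for CTSS.

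The low levels of the HLA genes were shared by the region. Between 29826474 and 33314078 on chromosome 6 (GRCh38.p14), RefSeq has 139 protein-coding genes, of which 34 were analysed (24.5%), against 58.8% of 20052 protein-coding genes over the genome. The median value of the 34 was 6.88, against 24.7 for all analysed protein-coding genes, and 21 of the 34 had a mean under 10. Reads of the MHC can also match the alternative haplotypes of the region, and how the authors treated such reads is not given in the sources used here, so levels in the region, those of HLA-B, TAP2 and TAPBP included, are uncertain. Its part in this coverage was not tested. The 12 tested genes of the region outside the class I set had a median log2 fold change of 0.06, with 0 higher and 1 lower by limma, near the 7.09% of all genes tested at that level. The 1 was DDR1, a collagen receptor of epithelial cells, with 77.6 and 156 in edited cells against 410 and 769 in wild-type cells (log2 fold change -2.34, SE 0.44, adjusted p = 0.0430). The other 3 with the widest differences went both ways without passing the test. CFB, complement factor B, had 4.09 and 87.6 against 228 and 172 (log2 fold change -3.23, SE 1.25, adjusted p = 0.145), PPP1R18 was listed at 0 in edited replicate 1 and lay at 16.3 to 21.6 in the other libraries, and WDR46 had 45.3 and 55.3 against 22.2 and 29.1 (log2 fold change 0.95, SE 0.21, adjusted p = 0.0562).

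The genes whose log2 values over the 4 libraries lay nearest to the mean profile of HLA-B, B2M, TAP2 and TAPBP were PLEKHA5, SUN1, PCCA, PSD3 and TSC1, at distances of 0.0248 to 0.0544 on the log2 scale. SUN1, a protein of the inner nuclear membrane, had 125 and 162 in edited cells against 216 and 212 in wild-type cells, and PCCA, a subunit of propionyl-CoA carboxylase, had 33.1 and 41.6 against 55.9 and 56.6. All 5 were lowest in edited replicate 1, next in edited replicate 2 and nearly equal in the wild-type libraries, like B2M, an order that followed from their choice by this profile. The centred mean profile was 0.30 and 0.28 in the wild-type libraries. HLA-B (0.17 and 0.82), TAP2 (1.04 and -0.50) and TAPBP (-0.27 and 0.53) were not nearly equal there, so the profile resembled B2M and not these genes. None of the 5 passed the limma test (adjusted p of 0.102 to 0.159).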

How the data were processed

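RNA-seq values of 4 MCF12A libraries (75-base single-end reads, TruSeq poly(A) libraries) were analysed, 2 wild-type and 2 edited, grouped by their labels. The authors deposited 1 normalized signal value per gene and library. The submitters' processing notes name HISAT2, Salmon and hg38, and the annotation, strand setting and normalization are not given in the sources used here. Values of 1022 single-transcript genes were multiplied by length and divided by a step of 1 read. Of 447 values under 3.5 estimated reads, 54.6% lay within 0.1 of a whole read, against 20% if spread evenly. This step (0.101) was taken from these same values, which favours a high share, so that values are length-scaled is an assumption. Depth was estimated from the smallest steps, for edited replicate 1 in 9 genes over 500 bases (median 0.116). Read numbers are approximate and cover counting error only.

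Values were not counts, so limma 3.58.1 (R 4.3.3; lmFit, eBayes with trend) was run on log2(value + 1) of genes with a mean of at least 10, with Benjamini-Hochberg adjustment and calls at 0.05. Genes below 10 were taken from the same fit over all genes. At 0.001, the threshold the study states for its RNA-seq, limma called 1 gene (0.0104%). The study reports many more genes at that threshold by a test it does not name, so the counts are not alike. Alternatives were other pseudocounts (0.1, 5), filters, scalings, variance estimates, the replicate number as a block and leaving out each library. The ratios were tested by exact permutation. The rule named the class I set, up to 6 called genes per list, genes the set depends on (IRF1, NLRC5, RFX5, PSMB10, CALR, CANX, PDIA3, ERAP1, ERAP2, TAPBPL), up to 4 neighbours in the MHC by size and the 5 genes nearest to the mean centred profile. Other list genes were named after their values were seen, and 3 list genes are not reported here. Members and lists were chosen with earlier results of these data known. RefSeq on GRCh38.p14 gave positions and promoters. Replicates are biological per the series text, with no further detail, so p-values measure the spread between these libraries.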

Additional observations from a re-analysis of the deposited data

How the results depend on the processing

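With 2 libraries per group, calls rested on few residual degrees of freedom, and a lone library left in a group was assumed to vary like the other group. The 680 changed genes became 419 with a mean of at least 50, 133 with the replicate block, 1 at an adjusted p of 0.001 and 4 to 1431 with 1 library left out. None of the 4 class I genes was called under any alternative. The 2 changed genes among the other class I pathway genes became 4 with equal library totals, 4 with the robust variance estimate, 0 with the replicate block and 0 at 0.001. Leaving out 1 library gave -1.31 to 0.22 for TAP2 and -0.67 to 0.14 for TAPBP (log2 fold change), and the sign turned without wild-type replicate 1 for TAP2 and without wild-type replicate 2 for TAPBP. The cause was not tested.

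Same-numbered libraries did not deviate together (r = -0.14 over 9590 genes), so the replicate block was not read as a pairing. With the block the adjusted p was 0.106 for HLA-B, 0.270 for B2M, 0.486 for TAP2 and 0.643 for TAPBP. The crossed pairing, chosen after seeing the data, called 1002 genes. Equal library totals moved the median over all tested genes from 0.09 to -0.03. Of 186 fits of 13 other genes (BLMH, CANX, CD74, CTSS, FCGRT, IRF1, IRF9, MR1, NLRC5, PSMB6, PSME1, PSME3 and TAPBPL), 138 kept their direction and side of the threshold, 27 lost and 21 gained a call, and 0 reversed.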
